A study of Drosophila melanogaster with 2 samples.

Results

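The sites described here were the 2686 entries of the pooled peak list at ranks 3315 to 6000, of 30000 entries in all. They lie directly below the 3314 reproducible peaks, which are exactly the strongest entries of the same list. The members were selected on their pooled signal value alone, so that value describes them and is not a result. The data are chromatin immunoprecipitation followed by sequencing (ChIP-seq) of the Drosophila melanogaster protein CG30431, carried as a C-terminal GFP fusion by a stable transgenic line and precipitated through the tag with an anti-GFP antibody. Both samples came from whole embryos aged 0 to 24 h, males and females pooled, with chromatin sonicated to 200 to 800 bp. The 2 replicates belong to 1 group and were made from different biosamples of a single donor line. Whole embryos of all these stages hold many cell types, so a site used in few cells and a weakly bound site in many cannot be told apart. All coordinates are on dm6.

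CG30431 is a C2H2 zinc-finger protein. Zinc-finger proteins of this class read short DNA words through tandem fingers, and in Drosophila several of them bind near the starts of broadly expressed genes or at chromatin domain borders. ChIP-seq recovers DNA that is bound directly together with DNA that is reached through other proteins or that shears and precipitates easily. The weaker end of a peak list therefore mixes binding sites with background. The reproducible set is the subset that the authors kept by the irreproducible discovery rate, which compares ranks between replicates.

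Sequences are shown for the strongest eligible members that carried 1 of 4 8-base words previously found around reproducible summits. These words are CACTGTGC, CACAGTGG, CACTGAGA and TACACTGA, each searched on both strands, and all 4 contain the core CACTG on one strand or the other. Each of the 5 sequences below spans 80 bp on either side of a summit, so that the summit is base 81 of 161, and was read from the dm6 genome in the orientation in which the word reads CACTGTGC, CCACTGTG, TCTCAGTG or TCAGTGTA. Capitals mark the bases of every match. All 5 lay among the 6000 strongest entries of both replicates and overlapped no reproducible peak.
Him, chrX:18207683-18207843, plus strand: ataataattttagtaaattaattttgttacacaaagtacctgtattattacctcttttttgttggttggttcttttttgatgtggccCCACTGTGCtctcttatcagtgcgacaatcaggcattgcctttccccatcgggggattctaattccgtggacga
wg, chr2L:7313572-7313732, plus strand: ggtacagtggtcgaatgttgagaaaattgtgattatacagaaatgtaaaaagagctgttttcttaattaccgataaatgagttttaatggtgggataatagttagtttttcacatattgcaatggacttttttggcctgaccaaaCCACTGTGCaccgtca
CR46006 lncRNA, chr3L:10328723-10328883, minus strand: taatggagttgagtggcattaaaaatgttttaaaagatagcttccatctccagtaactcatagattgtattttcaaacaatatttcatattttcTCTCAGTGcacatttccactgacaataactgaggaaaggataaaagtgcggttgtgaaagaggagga
Sema5c, chr3L:12077477-12077637, plus strand: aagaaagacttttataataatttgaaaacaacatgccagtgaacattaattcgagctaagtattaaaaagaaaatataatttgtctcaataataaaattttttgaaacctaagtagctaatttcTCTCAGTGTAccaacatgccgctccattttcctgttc
CG13898, chr3L:805754-805914, minus strand: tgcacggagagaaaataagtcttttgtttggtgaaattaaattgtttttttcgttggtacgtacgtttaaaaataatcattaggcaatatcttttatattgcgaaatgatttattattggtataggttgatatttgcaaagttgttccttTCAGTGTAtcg
The Him site lay between genes, 1664 bp from the start of Him, which encodes an inhibitor of muscle differentiation, and its capitals begin 7 bp after the summit. The wg site lay in an intron of wg, the gene of a Wnt ligand, with the capitals beginning 65 bp after the summit. In both, CACTGTGC and CACAGTGG (read as CCACTGTG) overlapped in 1 run of 9 bases. In the intron of Sema5c, which encodes a semaphorin, CACTGAGA and TACACTGA overlapped in the run that begins 44 bp after the summit. The CR46006 site held CACTGAGA and lay in an intron of that noncoding RNA gene, and the CG13898 site held TACACTGA 1783 bp from the nearest start. In each of the 5 sequences the capitals lay on the same side of the summit once the word was read in the stated direction.
The pooled signal of the Him site was 70.2, with 37.7 in replicate 1 and 31.7 in replicate 2. The wg site had a pooled signal of 69.6, with 33.0 and 34.8 in replicates 1 and 2. The Sema5c site had 69.8 in the pooled list, 29.4 in replicate 1 and 43.9 in replicate 2. The raw value was higher in replicate 1 at Him and in replicate 2 at wg and Sema5c. The pooled values of these sites were within 1 unit of each other. Members in general had higher raw values in replicate 1, with a median ratio of 1.35. By rank in each replicate's own list, all of these sites stood higher in replicate 2. The ranks in replicates 1 and 2 were 3826 and 3245 for Him, 4693 and 2886 for wg, and 5666 and 2145 for Sema5c.

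The signal value, a score given by the authors for each entry, fell from 70.8 at the top of the members to 45.4 at the bottom, with a median of 54.1. The median of the reproducible set was 121. The last reproducible entry had a signal of 70.79 and the first member 70.78, while the last member had 45.45 and the first entry below it 45.44, so neither border coincided with a gap in signal. The deposited −log10 q-value of the members ran from 2.36 down to 0.804. Nearly all members, 99.9%, were 364 bp wide. The members are compared below with the reproducible set, with the next 2686 entries (ranks 6001 to 8686) and with the weakest 2686 entries of the list (ranks 27315 to 30000), which serve as in-list background. Intervals are 95% intervals for counting error only. With a single group of 2 samples no test over samples was possible, so the same ranks of each replicate's own list are given as the spread between replicates.

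Member summits lay less often at promoters and more often in introns and between genes than summits of the reproducible set. A promoter summit, defined as one within 500 bp of any annotated transcription start, was found for 753 members, or 28.0% (26.3% to 29.8%). The share was 44.2% in the reproducible set, 20.7% in the next entries and 12.6% in the weakest, against 13.6% of all genome positions. The difference from the reproducible set was −16.2 percentage points (−18.6 to −13.8). The same ranks held 28.7% promoter summits in replicate 1 and 25.1% in replicate 2, both far from the 43.6% and 44.5% among the 3314 strongest entries of these lists. Members thus remained above the weakest entries by 15.4 points (13.3 to 17.5).
Introns held 1165 member summits, or 43.4%, which was 6.20 points (3.70 to 8.69) above the reproducible set and close to the 39.5% of genome positions that are intronic. Intergenic sequence held 626, or 23.3%, which was 7.13 points (5.11 to 9.17) above the reproducible set and below the 27.2% of genome positions. The 3.91-point and 4.15-point intron differences in replicates 2 and 1 alone were smaller than the pooled one. The intervals of the differences in 5' UTR, 3' UTR and noncoding exon included 0, with 8, 28 and 42 members in these classes.

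**Figure D1:**
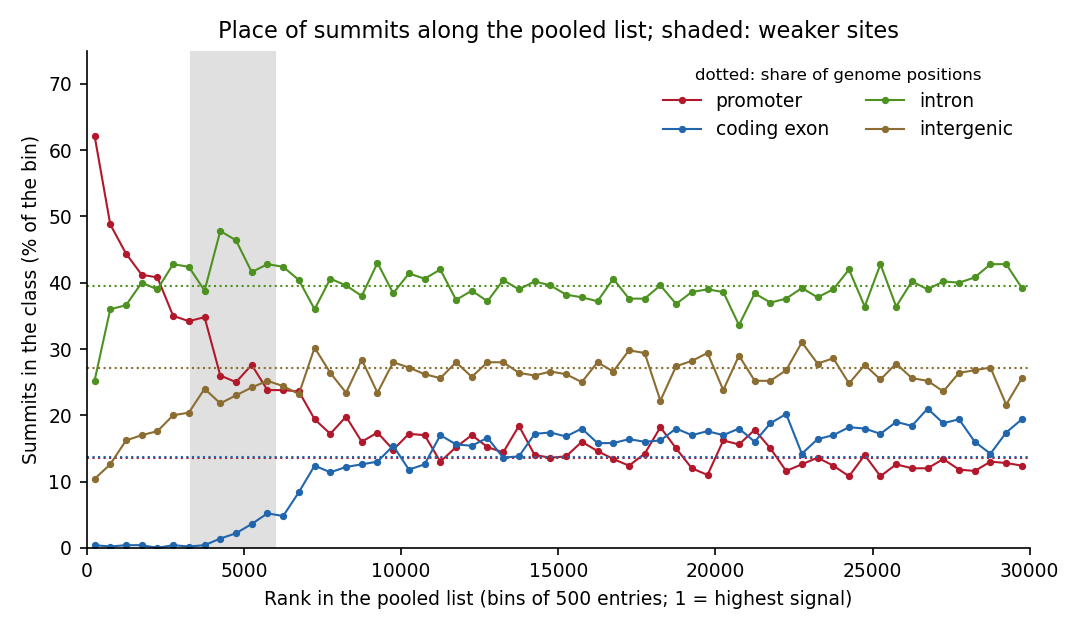
Share of summits (%) in 4 annotation classes for bins of 500 entries along the pooled list, against rank, with ranks 3315 to 6000 shaded and the share of genome positions dotted. Promoter summits fell from 62.2% in the first bin to 23.8% in the last bin of the weaker sites, and coding-exon summits rose from 0.400% to 5.20% between ranks 3501 and 6000.

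Coding exons were the class that changed most in proportion within the members. Only 10 reproducible summits (0.302%) lay in coding exons outside promoters, against 64 member summits (2.38%, 1.84% to 3.03%). The next entries had 9.98% and the weakest 17.4%, the latter above the 13.7% of genome positions that are coding. Members were 2.08 points (1.51 to 2.74) above the reproducible set, and their difference from the next entries was −7.59 points (−8.89 to −6.34). Among the stronger 1343 members the share was 0.819%, and among the weaker 1343 it was 3.95%. This rise depended on the list, since the same ranks of replicate 1 alone held 3.91% and those of replicate 2 alone 6.92%. The corresponding differences from the strongest entries were 3.64 points in replicate 1, 6.47 points in replicate 2 and 0.517 points for the stronger members of the pooled list.
The base composition of the sites moved along the same ranks. The median GC content of the 201 bp around the summit was 35.3% in the reproducible set, 37.8% in the members, 43.8% in the next entries and 46.8% in the weakest. Within introns alone, where class does not change, the medians were 35.6%, 37.3%, 41.8% and 44.3% in the same order. Coding-exon members had a median of 57.2%. Whether GC content has a part in the classes was not tested.

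Members at promoters sat mostly upstream of the start. Upstream summits made up 575 of 753, or 76.4% (73.2% to 79.4%), against 82.7% in the reproducible set, 60.1% in the next entries and 43.7% in the weakest. The difference from the reproducible set was −6.31 points (−9.98 to −2.78). The median position was 97 bp upstream (−97 bp), compared with −117 bp for reproducible and 59 bp downstream for the weakest summits. Starts on both strands within the window, whatever their order or gene type, were found for 225 promoter members (29.9%). The share was 38.3% of reproducible and 12.1% of the weakest promoter summits. The nearest start belonged to a protein-coding gene for 676 promoter members, a noncoding RNA gene for 68, and a tRNA gene, a small nucleolar or nuclear RNA gene and a pseudogene for 3 each. Outside promoters, the median distance to a start was 3511 bp for members and 2756 bp for reproducible summits.
Among promoter members seen in both replicates, the strongest lay 161 bp upstream of Naus, with a pooled signal of 70.8, 44.3 in replicate 1 and 33.2 in replicate 2. The second lay between CG5003 and mRpS22, which encodes a protein of the small mitochondrial ribosomal subunit, with 70.7, 32.0 and 38.6. The site 38 bp upstream of p47, which encodes a cofactor of the TER94 ATPase, had 70.5, 34.5 and 29.1, and held Motif 1. The raw values of the 3 sites showed both orders of the replicates, but members in general had higher raw values in replicate 1. By rank in each replicate's own list, all 3 stood higher in replicate 2. The ranks in replicates 1 and 2 were 3105 and 3049 at Naus, 4920 and 2528 at CG5003, and 4370 and 3655 at p47.
The site upstream of SF1, which encodes a splicing factor that recognises the branch point, had a pooled signal of 70.5, with 33.3 in replicate 1 and 32.3 in replicate 2. The CrebB site lay 200 bp downstream of a start of this gene, which encodes a cyclic-AMP-responsive transcription factor, with 70.4, 40.7 and 28.0. The Vps28 site, 49 bp upstream of a gene for a subunit of the ESCRT-I sorting complex, had 70.1, 33.5 and 33.9. Others in this group were at CG32107, CG12480, stops, CG13086, CG34355, MFS14, CG7720, CG32196 and be, with pooled signals between 70.0 and 70.6. Of these 15 members, none held any of the 4 words and 6 held CACTG.
The strongest members away from starts were in introns of Mbs, smog and cnc, then at an intergenic site 1571 bp from CG17746, in an intron of sbb and at an intergenic site 845 bp from Pde8. The Mbs site, in the gene of the myosin-binding subunit of myosin phosphatase, had a pooled signal of 70.8, with 37.6 and 28.9 in replicates 1 and 2. The smog site, in the gene of a receptor that acts in gastrulation, had 70.8, 42.7 and 24.0. The cnc site, in the gene of a stress-response and head-patterning transcription factor, had 70.7, 39.3 and 24.7. In all 3, the raw value was higher in replicate 1. By rank, smog (3276 against 5046 in replicate 2) and cnc (3624 against 4774) also stood higher there, but Mbs did not (3841 against 3695).

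Apart from chromosome 4, chromosome arms received members nearly in proportion to their length. The X held 479 members, 17.8% (16.4% to 19.3%), against 19.4% of reproducible summits and 17.6% of the length of the 6 arms. No arm differed from the reproducible set beyond its interval, with the X at −1.57 points (−3.54 to 0.418). The X share then fell to 13% in the next entries, 4.84 points (2.91 to 6.77) below the members, and was 16.2% in the weakest. Within the members it was 20.5% in the stronger 1343 and 15.2% in the weaker 1343. At the same ranks the X held 17.0% in replicate 1 and 14.9% in replicate 2, so the pooled value lay above both. Arm 3R had 23.1% of members and 26.8% of the next entries, a difference of −3.69 points (−5.99 to −1.37). Chromosome 4, with 1.01% of the length, held 1 member and 3 reproducible summits.
Members also lay closer to the reproducible set than entries further down. An overlap with a reproducible peak was found for 118 members (4.39%), compared with 60 of the next and 10 of the weakest entries. The median distance from a member summit to the nearest reproducible summit was 7938 bp, against 12000 bp for the next and 19312 bp for the weakest entries. Within 1000 bp of a reproducible summit lay 11.2% of members and 6.59% of the next entries, a difference of 4.62 points (3.10 to 6.14). Only 9 members (0.335%) had their summit in an annotated transposable element, which cover 5.93% of positions. The reproducible set was at 0.302% and the weakest entries at 0.633%, so the low share was not particular to members. The treatment of reads shared between repeats is not given in the sources used here.

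The replicate lists held most members, but seldom near the top of both. Each member summit was looked up in the entries of the replicates, taking the strongest entry that contained it. A summit inside an entry among the 6000 strongest of both replicates was found for 772 members, 28.7% (27.0% to 30.5%). Another 965 (35.9%) were found at that depth in replicate 1 alone, 662 (24.6%) in replicate 2 alone and 287 (10.7%) in neither. The reproducible set had 96.2% in both and the next entries 0.484%. Among all 30000 entries of both replicates, 2406 members (89.6%) were found, and 1 was in neither list. Among the 3314 strongest of both, 12 members and 78.7% of the reproducible set were found. Signal chose the members, so these shares describe the selection and are not evidence for binding. The entry at rank 6000 had a signal of 28.5 in replicate 1 and 22.1 in replicate 2.
For the 2406 members found in both lists, the signal of the strongest entry over the summit was taken. It ran from 14.3 to 127 in replicate 1, with a median of 31.2, and from 11.5 to 87.2 in replicate 2, with a median of 23.3. Replicate 1 was higher for 1822 (75.7%), with a median ratio of 1.35 and quartiles of 1.01 and 1.80. The reproducible set had a similar median ratio, 1.34, with narrower quartiles of 1.13 and 1.63. A ratio more than 1 log2 unit from the median was found for 282 members (11.7%), against 4.47% of reproducible peaks. The sum of the replicate values was close to the pooled value, with a median quotient of 0.988. In a narrow range of pooled signal, a high value in one replicate therefore goes with a low one in the other.

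**Figure D2:**
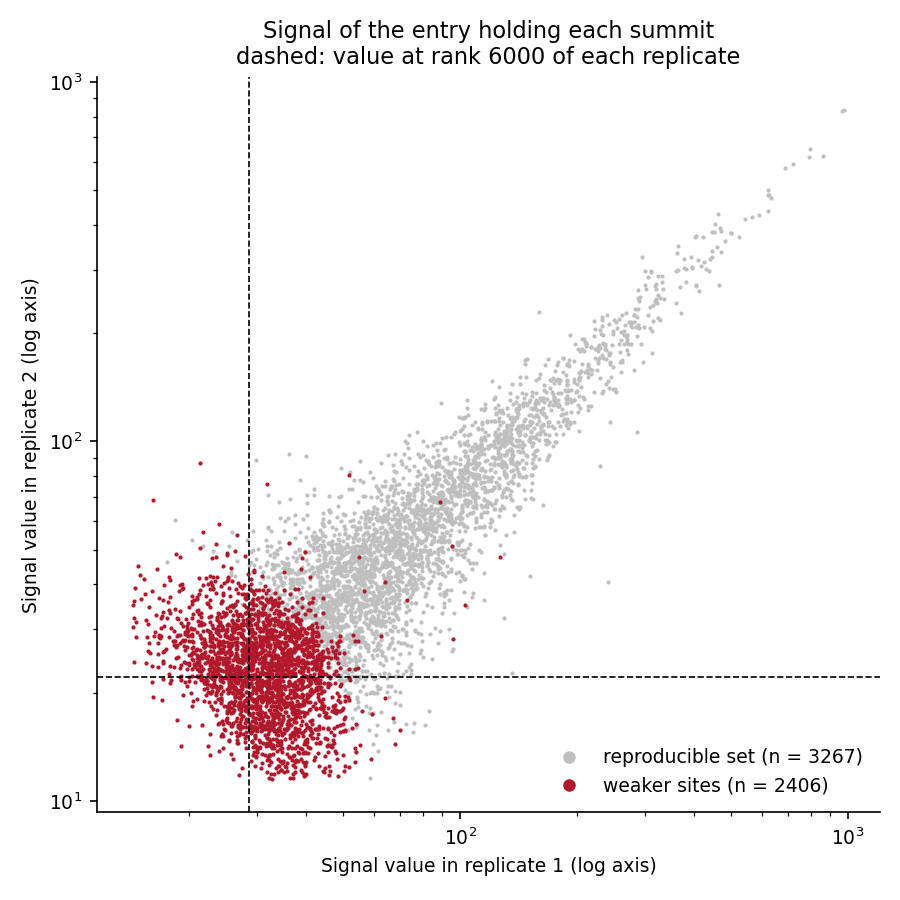
Signal value of the entry holding each summit in replicate 1 (x axis) and replicate 2 (y axis), both log axes, for 2406 weaker sites (red) and 3267 reproducible peaks (grey), with the value at rank 6000 of each replicate dashed. The weaker sites form a cloud around 31.2 and 23.3 that the dashed lines divide, whereas most reproducible peaks lie above both lines.

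Members found among the 6000 strongest of both replicates were compared with those found in neither. Coding exons held 0.648% of the former and 5.57% of the latter, a difference of −4.93 points (−8.24 to −2.64). Promoters held 30.7% and 23.0%, a difference of 7.70 points (1.62 to 13.3). The X held 20.7% and 13.6%, a difference of 7.14 points (1.93 to 11.7). The median GC content was 36.3% and 40.3%. The pooled signal also differed, with medians of 62.3 and 47.3, and the part of signal strength in these differences was not tested. For the 4 words, 11.1% against 8.01%, the interval of the difference ran from −1.12 to 6.69 points and included 0. The same held for CACTG, with 47.5% against 42.5% (−1.73 to 11.6). Members found at that depth in replicate 2 alone had 11.8% with 1 of the 4 words and 51.1% with CACTG, both above the shares of members found in both, a difference that was not tested.
Some member summits lay in a strong entry of 1 replicate and in no entry of the other. The summit of a member 463 bp from the start of Drat lay in a replicate 1 entry with 260, ranked 128. The pooled signal of this member was 50.1, and no replicate 2 entry lay over the summit. An entry of replicate 2 with 95.3 overlapped the rest of the interval. The summits at tacc, which encodes a centrosomal microtubule-binding protein, and at CG3165 lay in replicate 1 entries with 110 and 97.6. Their pooled signals were 51.8 and 53.6, and both members overlapped a reproducible peak. In all 3 cases the replicate 1 value exceeded the pooled one. Because the strongest entry over a summit was taken, these values need not be the members' own. Entries of replicate 2 with 81.0 and 43.0 overlapped the intervals at tacc and CG3165, so in all 3 cases replicate 2 had an entry beside the pooled summit. In the other direction, a member at Tom7, which encodes a subunit of the outer mitochondrial membrane translocase, had 46.9 in replicate 2 and an overlapping entry of 40.0 in replicate 1. The member at CG42674 had 45.6 in replicate 2, with an overlapping entry of 31.8 in replicate 1. The member in an intron of Ptp61F, the gene of a tyrosine phosphatase, had 44.9 in replicate 2, and no entry of replicate 1 overlapped it.

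Within 100 bp of the summit, words found around reproducible summits were present in members at rates between those of the reproducible set and the weakest entries; within 50 bp members were not below the reproducible set, with values given further on. The core CACTG and the 4 words were picked in earlier work on the reproducible set, which favours that set, so a lower share in members is partly built into the choice and their differences from it are given as descriptions. At least 1 of the 4 words lay within 100 bp of the summit in 268 members, 9.98% (8.87% to 11.2%). The share was 14.3% in the reproducible set, 7.26% in the next entries and 3.87% in the weakest, while 2.31% of all 201 bp tiles of the genome held 1. The difference of members from the reproducible set was −4.33 points (−5.96 to −2.67), and they were 6.11 points (4.77 to 7.47) above the weakest entries. The same ranks of replicates 1 and 2 held 9.31% and 10.0%. CACTG itself was found in 48.3% of members, 51.0% of reproducible peaks, 37.9% of the weakest entries and 29.7% of tiles. Its difference from the reproducible set was −2.70 points (−5.24 to −0.157) over all members and −0.393 (−3.56 to 2.77) for the stronger 1343.
CACTGTGC was in 3.24% of members and 5.82% of reproducible peaks, a difference of −2.58 points (−3.63 to −1.53). CACAGTGG was in 3.13% and 5.79%, with −2.67 points (−3.70 to −1.62), and TACACTGA in 2.61% and 4.19%, with −1.59 points (−2.50 to −0.665). CACTGAGA was in 4.32% and 4.74%, and its difference of −0.419 points had an interval from −1.47 to 0.654. It was thus the only 1 of the 4 whose interval included 0.
Promoter members and the others were compared for each word. CACTGAGA was in 1.86% of promoter members and 5.28% of the others, a difference of −3.42 points (−4.74 to −1.88). For CACTGTGC (0.297 points, −1.10 to 2.00), CACAGTGG (−0.101, −1.44 to 1.54), TACACTGA (−0.853, −2.00 to 0.573) and CACTG (−2.56, −6.74 to 1.65) the interval of this difference included 0. Motif 1 (GGTCACACT) and DRE (TATCGATA), core promoter words of broadly expressed Drosophila genes, were in 2.92% and 5.18% of promoter members and in 0.259% and 0.310% of the others. Windows of the same length centred on all coding starts held these at 4.42% and 6.45%, which is above the share in promoter members. The member windows are centred on summits, at a median of −97 bp from the start, so these shares are not like for like. Over all members the CTCF core (AGNTGGCGC) was in 1.68%, the su(Hw) core (TGCATACTT) in 0.596% and GAGAGAG in 2.83%, and the interval of each difference from the reproducible set included 0. Genome tiles held them at 0.593%, 0.406% and 2.45%, and the weakest entries at 0.931%, 0.521% and 2.38%. The interval of the difference from the weakest entries included 0 for the su(Hw) core and GAGAGAG, but not for the CTCF core (0.136 to 1.38 points). All words were searched on both strands. GAGAGAG can match more than once in a longer repeat, and each window was counted once. Within introns 10.3% of members and 17.0% of reproducible peaks held 1 of the 4 words, and at promoters 7.84% and 10.1%.

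**Figure D3:**
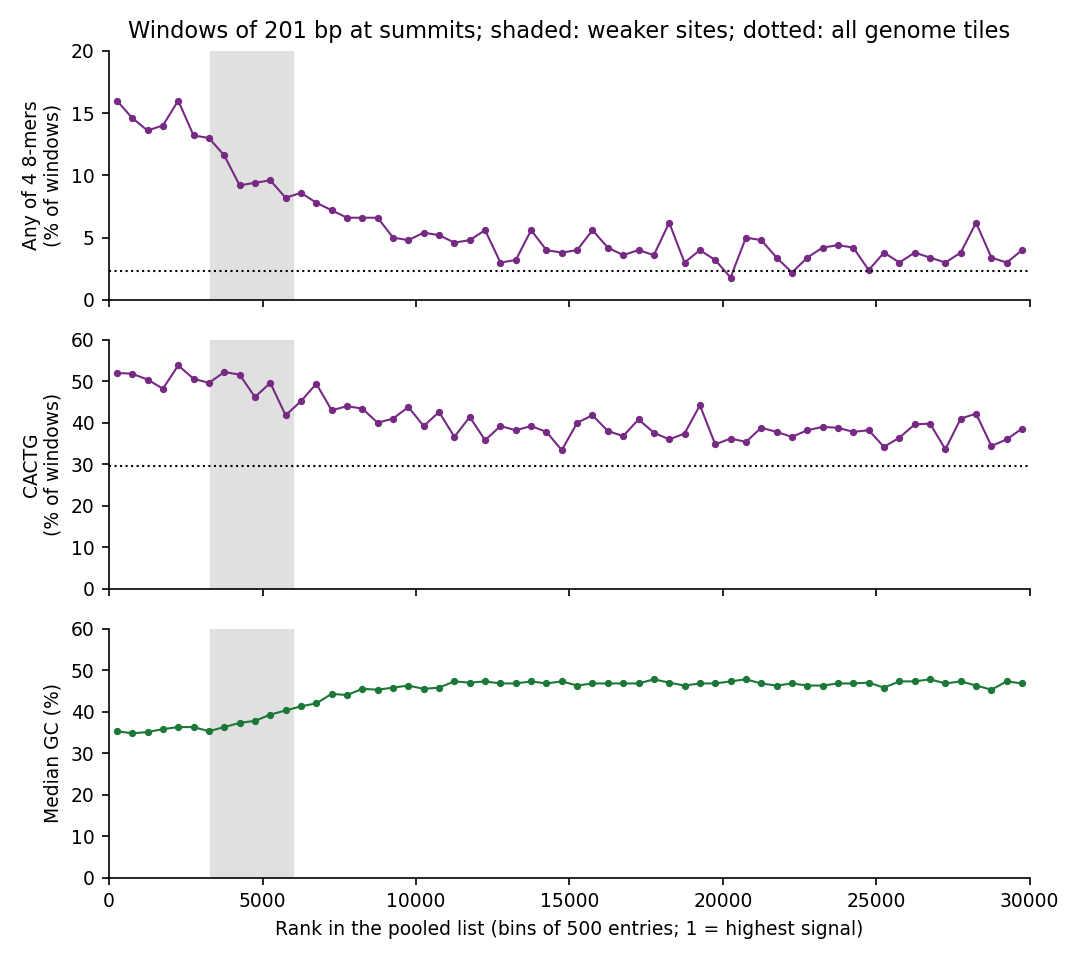
Share of 201 bp windows at summits that held any of the 4 words (top) or CACTG (middle), and their median GC content (bottom), for bins of 500 entries against rank, with ranks 3315 to 6000 shaded and the share of all genome tiles dotted. Across the weaker sites the 4 words fell from 11.6% (ranks 3501 to 4000) to 8.20% (ranks 5501 to 6000), while GC content rose from 36.3% to 40.3%.

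The words kept a side relative to the summit. When read as CACTGTGC, CCACTGTG, TCTCAGTG and TCAGTGTA, 292 of 371 matches in members lay downstream of the summit, 78.7% (74.2% to 82.8%). Overlapping words of 1 run count as separate matches, while the intervals treat matches as independent. The reading was picked in earlier work on the reproducible set, which favours a high share there. Differences from that set are therefore given as descriptions. The share was 88.6% of 719 matches in the reproducible set, 72.8% in the next entries and 49.2% (40.4% to 58.1%) in the weakest. The difference of members from the reproducible set was −9.89 points (−14.8 to −5.27), and they were 29.5 points (19.9 to 38.8) above the weakest. By word the member share ran from 71.7% for CACTGTGC to 85.9% for TACACTGA.
Among downstream matches, the median offset was 46.5 bp in members and 61.5 bp in the reproducible set. Matches were searched only to 100 bp, and the last bin, 80 to 100 bp downstream, still held 20.4% of reproducible matches and 8.89% of member matches. Offsets and word shares, above all those of the reproducible set, are thus limited by the window. The signed medians over both sides were 36.5 bp and 57.5 bp, which also carry the larger upstream share of members. Among the 2495 reproducible peaks of the same 364 bp width, the signed median was 52.5 bp and 88.5% lay downstream. Within 50 bp of the summit, 29.1% of members and 24.1% of reproducible peaks held CACTG, a difference of 5.0 points (2.76 to 7.26). Here the order of the groups was opposite to that within 100 bp. For the 4 words the shares within 50 bp were 5.44% and 5.28%, and the interval of the difference ran from −0.984 to 1.32 points.

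**Figure D4:**
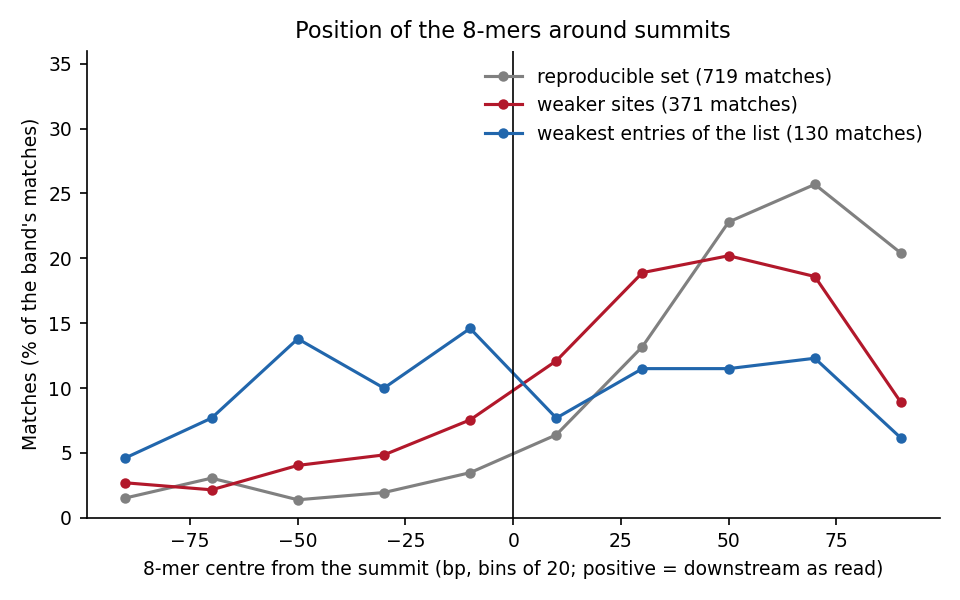
Position of the centres of the 4 words relative to the summit (bp, bins of 20, positive values downstream in the stated reading) as a share of all matches in the weaker sites (371), the reproducible set (719) and the weakest entries of the list (130). Matches in weaker sites and reproducible peaks lie mostly to the right of the summit, with signed medians of 36.5 bp and 57.5 bp, whereas 49.2% of those in the weakest entries do.

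Members reached the promoters of 872 of 13945 protein-coding genes (6.25%), compared with 1784 (12.8%) for the reproducible set and 306 (2.19%) for the weakest entries. A gene was counted when a summit lay within 500 bp of any of its starts, even if another gene's start was nearer. Because 1 summit can thus count for more than 1 gene, these are not counts of sites. Of the 872, 129 also had a reproducible summit. The other 743 made up 6.11% of the 12161 genes without a reproducible summit. Members raised the number of genes with a summit at a start from 1784 to 2527. The same ranks in replicates 1 and 2 reached 886 and 779 genes. The lists below are described by counts, to be read against the 6.25% and 6.11%. They were chosen with earlier results known, most counts are below 10 genes, and no list was tested against the background. Of all members, 28.7% were among the 6000 strongest of both replicates, so a gene counted here need not have such a member.

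**Figure D5:**
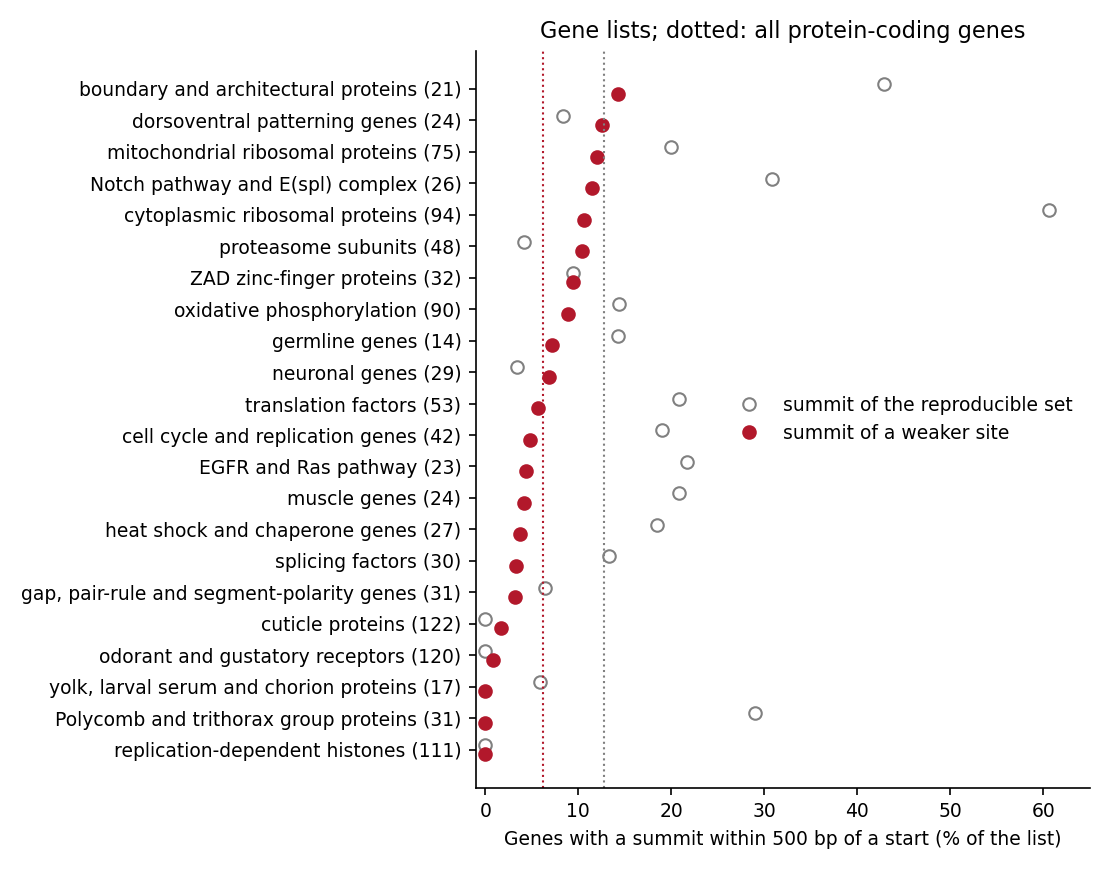
Share of the genes of each list (number of genes in brackets) with a summit within 500 bp of a start, for weaker sites (filled) and the reproducible set (open); dotted lines give the shares over all protein-coding genes, 6.25% and 12.8%. Lists of fewer than 14 genes are left out. Weaker sites reached between 0% and 14.3% of a list, a narrower range than the 0% to 60.6% of the reproducible set.

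Members lay at genes of the ribosome, of mitochondrial energy supply and of the proteasome. Among 94 genes of cytoplasmic ribosomal proteins, 57 (60.6%) had a reproducible summit and 10 (10.6%) a member, 8 of which were among the 37 genes without a reproducible one (21.6%). RpL9, a protein of the large subunit, had a member 4 bp upstream of its start with a pooled signal of 68.2, 44.0 in replicate 1 and 24.7 in replicate 2. RpS14b had a member with 61.9, 27.1 and 33.0, but it has a near-identical neighbour, RpS14a, and the authors' placement of shared reads is not given in the sources used here. RpL27A had a member with 68.4, 27.7 and 37.5 that overlapped a reproducible peak at the same gene. The others were RpL10Ab, RpL12, RpL35, RpS28a, RpS6, RpLP2 and RpS5b, with pooled signals from 45.8 to 56.5.
Of 75 mitochondrial ribosomal protein genes, 15 had a reproducible summit and 9 (12%) a member, 8 of the latter among the 60 without one (13.3%). At mRpL21 of the large subunit the pooled signal was 68.5, with 43.9 and 25.7 in replicates 1 and 2. At mRpL37 it was 68.2, with 48.5 and 22.4, and this member overlapped a reproducible peak. Of 90 genes of oxidative phosphorylation, 13 had a reproducible summit and 8 others a member (8.89%, or 10.4% of the 77 without one). COX5A, a subunit of cytochrome c oxidase, had 67.7 in the pooled list, 48.4 in replicate 1 and 27.0 in replicate 2. ATPsynC, the ring subunit of ATP synthase, had 65.6, 26.4 and 38.9, and ND-B22 of complex I had 63.8, 31.3 and 35.0. The replicate with the higher raw value differed among these genes, while members in general had higher raw values in replicate 1.
Of 48 proteasome subunit genes, 2 had a reproducible summit and 5 others a member (10.4%, or 10.9% of the 46 without one). All 5 members were at genes of the regulatory cap. Rpt5, an ATPase of the cap base, had a pooled signal of 60.9, with 44.6 in replicate 1 and 21.3 in replicate 2. Rpn8, a lid subunit, had 56.3 in the pooled list and 40.8 in replicate 2, and its summit lay in no entry of replicate 1. Rpn13, a ubiquitin receptor, had 54.5, 23.9 and 31.5. Rpn11, the deubiquitinase of the lid, and Rpn6 had pooled signals of 50.7 and 45.6. None of the 5 was among the 6000 strongest of both replicates.
Other lists of general cell functions were near or under the background. Translation factors had 3 of 53 genes with a member (5.66%), at eIF3m, eRF1 and eIF3h. Splicing factors had SF1 alone of 30, and cell cycle and replication genes had aurA, a mitotic kinase, and E2f2, a repressive E2F, of 42. Heat shock and chaperone genes had Hsp22 alone of 27. The aurA member had a pooled signal of 62.4, with 35.7 in replicate 1 and 24.6 in replicate 2.

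Members also lay at developmental regulators, in shares from 3.23% to 12.5% of a list, on both sides of the 6.25% of all protein-coding genes. Of 24 dorsoventral patterning genes, 3 had a member (12.5%) and none of these a reproducible summit. Tl, the gene of the Toll receptor, had one 2 bp upstream of a start with a pooled signal of 52.1, 33.8 in replicate 1 and 12 in replicate 2. The tkv gene, for a type I receptor of Dpp, had 48.8, 27.8 and 23.3, and vnd, for a homeodomain protein of the ventral nerve cord, had 45.7, 34.9 and 12.9. None of these 3 members was among the 6000 strongest of both replicates. The replicate 2 values at Tl and vnd were close to the 11.5 at the end of that list. In the Notch list 3 of 26 genes had a member (11.5%). N, the receptor itself, had 63.6, 41.5 and 30.0, and nej, the gene of the CBP acetyltransferase, had 67.3, 37.7 and 26.6. Both were among the 6000 strongest of both replicates. The third, neur, a ubiquitin ligase that acts on Notch ligands, had 48.1 and lay on a reproducible peak.
Single genes had a member in 5 further lists. These included Dfd of 8 Hox genes (12.5%), with a pooled signal of 60.1, and smo of 31 gap, pair-rule and segment-polarity genes (3.23%), with 54.2. They also included spi of 23 EGFR and Ras genes (4.35%), with 65.9, a gene that also had a reproducible summit. Mef2, of 24 muscle genes (4.17%), had 64.5, with 28.2 and 31.9 in replicates 1 and 2. The germline gene spn-E, of 14 (7.14%), shared its member with its neighbour ND-23, with 52.6 in the pooled list. None of these 5 member summits lay among the 6000 strongest of both replicates. Neuronal genes had elav and Fas2 of 29 (6.90%), with 57.7 and 52.0. The elav gene also had a reproducible summit. By summit, its member was among the 6000 strongest of neither replicate, although a replicate 2 entry of 56.1 overlapped the interval. The Fas2 member was found at that depth in replicate 1 alone.
Regulators of chromatin held from 0 to 3 members per list. Boundary and architectural proteins had 3 of 21 genes with a member (14.3%), with 9 (42.9%) in the reproducible set. BEAF-32, the gene of a boundary factor, had a pooled signal of 63.6 at a member that overlapped a reproducible peak. The l(3)mbt member had 51.1, with 24.8 in replicate 1 and 28.7 in replicate 2, and the member at su(Hw), which encodes an insulator protein, had 50.4, 30.5 and 16.5. ZAD zinc-finger proteins had 3 of 32 (9.38%), at CG17801, CG2712 and Meics. In both of these lists, no member summit lay among the 6000 strongest of both replicates. Polycomb and trithorax group genes had none of 31, although 9 had a reproducible summit. No entry of the pooled list had its summit in CG30431 itself or within 500 bp of it.
Histone genes and lists of late or specialised products held few or no members. Replication-dependent histone genes had none of 111, and yolk, larval serum and chorion genes none of 17. Cuticle genes had 2 of 122 (1.64%), Cpr47Ed and Cpr78Cc, and odorant and gustatory receptors had Gr28b alone of 120 (0.833%). Histone genes are near-identical repeats, at which the treatment of shared reads is not given in the sources used here. None of the 3 genes named was among the 6000 strongest of both replicates.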

How the data were processed

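Per the deposited readme, the authors made 1 peak list per replicate against a control, another from the pooled replicates, and from these the reproducible set by the irreproducible discovery rate. For the aligner, peak caller, versions, threshold and treatment of shared reads, details were not given in the sources used here. The deposited signal is the authors' own value per entry, on an unstated scale, and was used to rank and describe entries. The −log10 q-value is also the deposited value. No read counts were used, so the depth per sample is unknown.

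The members and gene lists were chosen with earlier results of these data known. Gene models came from Ensembl release 115 (BDGP 6.54), without transposable elements, with 18164 genes and 23581 starts on 6 arms. Each summit was put in the first class that applied, with promoters before exons (5' UTR, then coding, then 3' UTR, then noncoding), introns and intergenic sequence. The 23 gene lists left 16 names unmatched. Shares have exact binomial intervals and differences of shares have Newcombe intervals, at 95%. Both treat entries as independent and cover counting error only. No p-value was computed, because entries are not replicates. The functions were tested on simulated data. The work used matplotlib 3.10.9, pandas 2.3.3, scipy 1.17.1 and numpy 2.4.6 in Python 3.11.15.

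Members named are those at the borders of the rank range, the 15 strongest at promoters, the 6 strongest elsewhere and up to 3 genes per list. Sequences came from the 2 strongest per word that were not on arm 2R. The promoter, other and sequence members were taken among the 6000 strongest of both replicates and overlapped no reproducible peak. Also named are, per replicate, the 3 members with the highest value whose summit lay in no entry of the other. Further list genes were named to complete counts, after their values were seen. Alternatives were start windows of 200 and 1000 bp, word windows of 50 bp, the stronger 1343 members, members overlapping no reproducible peak, each replicate's own list, other lookups and the dm3 lists.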

Additional observations from a re-analysis of the deposited data

How the results depend on the processing

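Of 51 alternatives over 9 results, 41 left the result unmoved, judged for differences by direction and by whether the interval excluded 0, and for shares and counts by size. All alternatives for the promoter, coding-exon, intron and intergenic differences kept their direction with intervals excluding 0, but not all kept their size. The coding-exon difference (2.08 points) was 0.517 for the stronger 1343 members, and the intron difference (6.20) was 3.15 with a 200 bp promoter window. The CACTG difference (−2.70 points) was −0.393 (−3.56 to 2.77) among the stronger members and turned to 5.0 in 50 bp windows, where that of the 4 words turned to 0.155. The share among the strongest of both replicates (28.7%) was 51.1% for the stronger members, 34.0% with any overlap, 0.447% at the depth of the reproducible set, 89.6% over all entries and 29.2% in the dm3 lists. Genes with a member (872) were 494 with a 200 bp window and 492 for the stronger members. With a 1000 bp window they were 1149, which was counted as unmoved. In single-replicate lists the downstream share ranged from 72.0% to 82.0%, the promoter difference from −19.5 to −14.9 points, the coding-exon difference from 3.64 to 6.47, the intron difference from 3.91 to 4.15, the intergenic difference from 6.17 to 7.68, the CACTG difference from −3.95 to −3.90, the difference for the 4 words from −4.60 to −3.74 and the gene count from 779 to 886. The cause of these shifts was not tested. No paired analysis was possible because both samples belong to 1 group. Depth is unknown, so no lower limit of detection can be given, and absence from a list of fixed length is not absence of binding.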
